A study of Mus musculus with 24 samples.

Results

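The Zfp genes of the mouse, which encode zinc finger proteins, were described across NSun2 knock-out (KO) and wild-type (WT) testes of 2 ages. Members were all genes with the annotated symbol Zfp followed by digits whose probe had a mean over the 24 arrays above the median of all probes, with the brightest probe standing for each gene and 5 genes left out. The rule found 205 members among 299 such Zfp genes named on the array, out of 12177 genes tested in all. Each member was therefore chosen by its mean level, so levels are given as a description and tests were made only between groups. That mean takes in all 4 groups, so a member bright in 1 group may have passed the limit through it. Tests of such a member against that group are not free of the choice. RNA of testis was read on 1-colour Illumina bead arrays in 4 groups of 6 arrays: KO at 15 days, WT at 15 days, KO at 49 days and WT at 49 days. All samples came from the F1 generation of a CBA by C57BL/6J cross. KO animals came from 2 lines, one made from the gene-trap embryonic stem cell line D014D11 and the other carrying the allele Nsun2tm1a(EUCOMM)Wtsi, and the line behind each KO sample is not labelled. Nor are the arrays labelled as separate animals, so p-values measure the spread between these samples, which may be technical.

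Most Zfp proteins carry C2H2 fingers, small loops held by a zinc ion that read short stretches of DNA. Many also carry a KRAB box, which recruits the corepressor TRIM28 and, through it, the histone methyltransferase SETDB1, and these proteins silence transposable elements and nearby genes. A smaller number of Zfp genes act elsewhere, on RNA, on ribosomes or in meiosis, and some of these are expressed mainly in male germ cells. NSun2 is a methyltransferase that places 5-methylcytosine on transfer RNAs and other RNAs. At 15 days the first wave of male germ cells has reached meiosis, whereas at 49 days the testis holds all stages up to elongated spermatids.

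The targeted gene, Nsun2, had a probe above background on 0 of 6 KO and 5 of 6 WT arrays at the age of 15 days. At 49 days these counts were 0 of 6 KO and 3 of 6 WT arrays. Its log2 change, KO against WT, was -1.48 at 15 days (adjusted p = 0.000294) and -1.15 at 49 days (adjusted p = 5.43e-05) in limma. Being above background here means that under 1% of the 946 dim control rows on that array outshone the probe. Between 16267 and 19051 probes passed this limit per array, and median intensities lay between 223.9 and 278.7. The arrays, 6 per group, set the precision of every value.

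The members covered a wide range of levels. On the background-corrected, quantile-normalized log2 scale, the members' group means ran from 4.86 to 12.33 in KO testes and from 4.92 to 12.6 in WT testes at 15 days, and from 5.34 to 12.36 in KO and from 5.16 to 13.27 in WT testes at 49 days. A total of 120 members were above background on all 24 arrays. On all 6 arrays of a group, 168 members were above background in KO and 161 in WT at 15 days, and 141 in KO and 140 in WT at 49 days. At 49 days 10 members passed that limit on no KO array and 33 on no WT array. The highest means over all arrays were those of Zfp523, the mouse counterpart of the human transcription activator ZNF76, and of Zfp639, Zfp219 and Zfp212. Just inside the limit of 7.935 on the authors' log2 scale lay Zfp961 at 7.94, Zfp580 at 7.95, Zfp617 at 7.959 and Zfp365 at 7.982. Just outside it lay Zfp658 at 7.935, Zfp618 at 7.93, Zfp872 at 7.922 and Zfp52 at 7.92.

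The promoters of 4 members are shown here because these genes stand for the patterns described below. Zfp641 and Zfp558 are among the largest rises and falls in KO testes at 49 days. Zfp72 fell too and holds a cAMP response element, the letters TGACGTCA, which factors of the CREM family bind in spermatids. Zfp541 is a gene of meiotic germ cells that fell at both ages. The 300 bases, from 250 before to 50 after the annotated start, come from RefSeq on GRCm38.p6 and are written 5′ to 3′ on the strand of the gene, with every CG in capitals. They lie at chr15:98296112-98296411 on the minus strand for Zfp641, chr9:18473596-18473895 on the minus strand for Zfp558, chr13:74390780-74391079 on the minus strand for Zfp72 and chr7:16071595-16071894 on the plus strand for Zfp541.
Zfp641: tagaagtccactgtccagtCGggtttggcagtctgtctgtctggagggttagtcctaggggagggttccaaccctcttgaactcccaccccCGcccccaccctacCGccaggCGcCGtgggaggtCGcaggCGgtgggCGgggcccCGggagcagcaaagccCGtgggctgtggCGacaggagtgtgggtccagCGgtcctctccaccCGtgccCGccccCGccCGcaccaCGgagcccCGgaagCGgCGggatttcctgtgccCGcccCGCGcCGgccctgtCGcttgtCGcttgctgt
Zfp558: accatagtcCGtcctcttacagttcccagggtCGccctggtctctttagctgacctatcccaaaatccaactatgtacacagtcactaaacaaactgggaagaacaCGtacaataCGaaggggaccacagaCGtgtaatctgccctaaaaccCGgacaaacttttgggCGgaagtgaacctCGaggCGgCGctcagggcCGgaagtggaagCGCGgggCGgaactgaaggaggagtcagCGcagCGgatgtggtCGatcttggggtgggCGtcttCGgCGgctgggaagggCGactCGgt
Zfp72: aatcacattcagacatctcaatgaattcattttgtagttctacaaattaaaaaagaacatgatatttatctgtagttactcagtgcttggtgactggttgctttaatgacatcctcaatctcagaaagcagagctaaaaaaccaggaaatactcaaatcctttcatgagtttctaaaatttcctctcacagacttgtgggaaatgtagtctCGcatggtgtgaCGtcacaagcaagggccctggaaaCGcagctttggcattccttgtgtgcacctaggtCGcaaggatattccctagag
Zfp541: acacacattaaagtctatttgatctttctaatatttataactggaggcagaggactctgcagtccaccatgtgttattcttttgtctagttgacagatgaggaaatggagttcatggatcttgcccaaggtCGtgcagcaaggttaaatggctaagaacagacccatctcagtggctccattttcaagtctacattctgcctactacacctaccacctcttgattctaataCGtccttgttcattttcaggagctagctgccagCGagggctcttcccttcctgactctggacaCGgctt

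The printed promoters of Zfp641 and Zfp558 hold 26 and 22 CG pairs, and those of Zfp72 and Zfp541 hold 4 each. Of the 205 members, 168 had a promoter in the table. Their median number of CG pairs was 17, against 20 over the 9859 genes tested that had one and 7 over all 27025 promoters. The median was 17 among members that rose, among those that fell and among those with no call at 49 days. The cAMP response element was found, on either strand, in 7 of 168 members (4.17%), against 3.16% of the genes tested and 1.88% of all promoters. It was in 3 of 74 members that rose at 49 days, 2 of 39 that fell and 2 of 55 others. These counts are too small to compare, and a link with falling was not tested. Zfp72 and Zfp558 had 2 listed starts each, and only the first was read. The 5 letters CCAAT were found on either strand in 37 of 74 members that rose, 14 of 39 that fell and 21 of 55 others, against 38.7% of the genes tested. These matches describe letters in this window and no more.

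At 49 days, 93 members were higher and 47 lower in KO than in WT testes (limma, adjusted p under 0.05), and 65 did not pass. These are 45.4% and 22.9% of the members, whereas 46.6% and 26.5% of all genes tested were higher and lower. The shares of the members lay near the background, so the counts say nothing particular about Zfp genes, and the values of single members follow. The median log2 change was 0.28 over the members and 0.30 over all genes tested, and the changes of the members were less spread, with an SD of 0.88 against 1.14. The members were also dimmer, with a median level of 8.07 against 9 for all genes on KO array A of 49 days and 7.79 against 8.94 on WT array A. Spread at equal level was not compared. The balance of directions depended on the normalization: under cyclic loess the median of all genes was -0.07, and 60 members were higher and 75 lower, against 31.2% and 39.4% of all genes. All 47 members called lower were also lower under cyclic loess, and 60 of the 93 called higher were also higher, while 2 of those 93, Zfp263 and Zfp639, were called lower. The arrays of KO and WT did not overlap for 41 members higher and 25 lower in KO, against 24.1% and 15% of all genes. Neither group was above background on any array for 3 of the 93 higher and 1 of the 47 lower members.

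**Figure D1:**
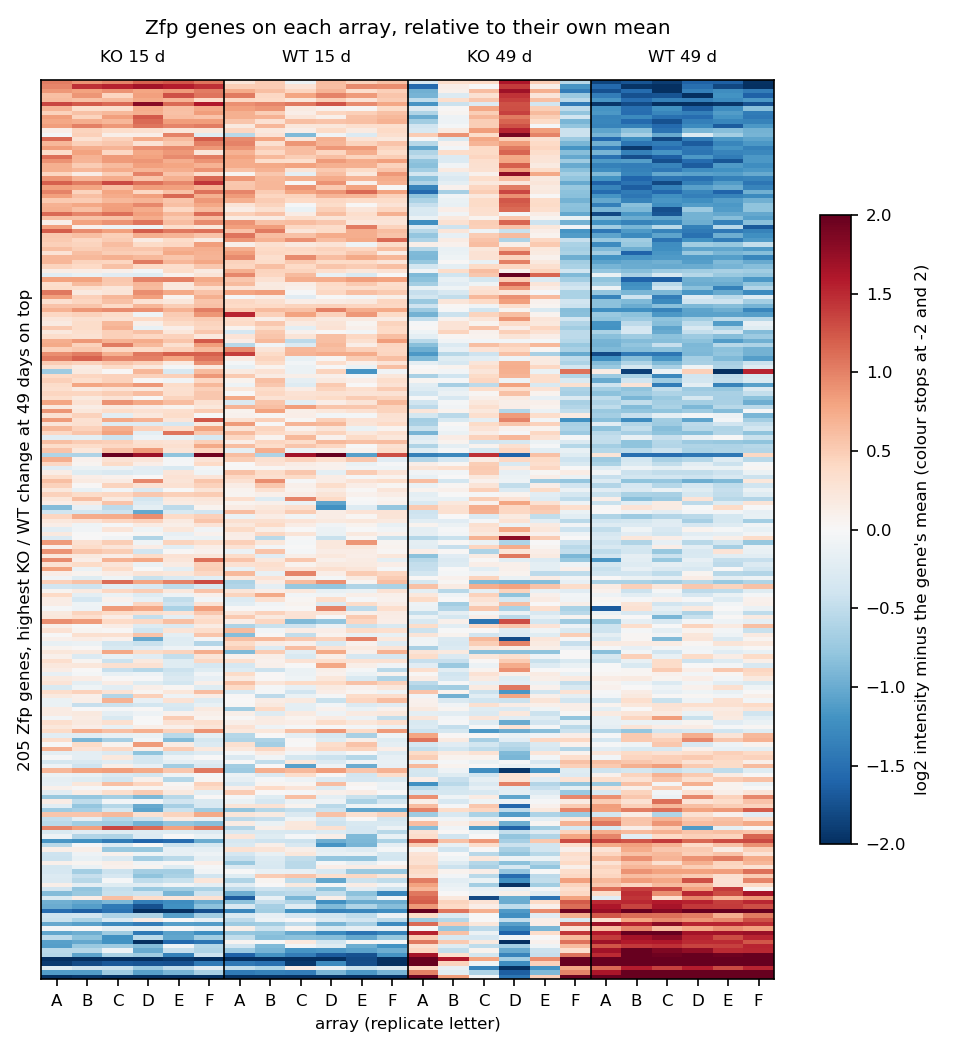
Heat map of 205 Zfp genes (rows) on 24 arrays (columns, replicates A to F of each group), as log2 intensity minus the gene's own mean over all arrays, with rows ordered by the KO against WT change at 49 days. The upper rows are low on the WT arrays at 49 days and the lower rows high on them, while the KO arrays of that age differ among themselves, with D the furthest from WT and A and F the nearest.

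**Figure D2:**
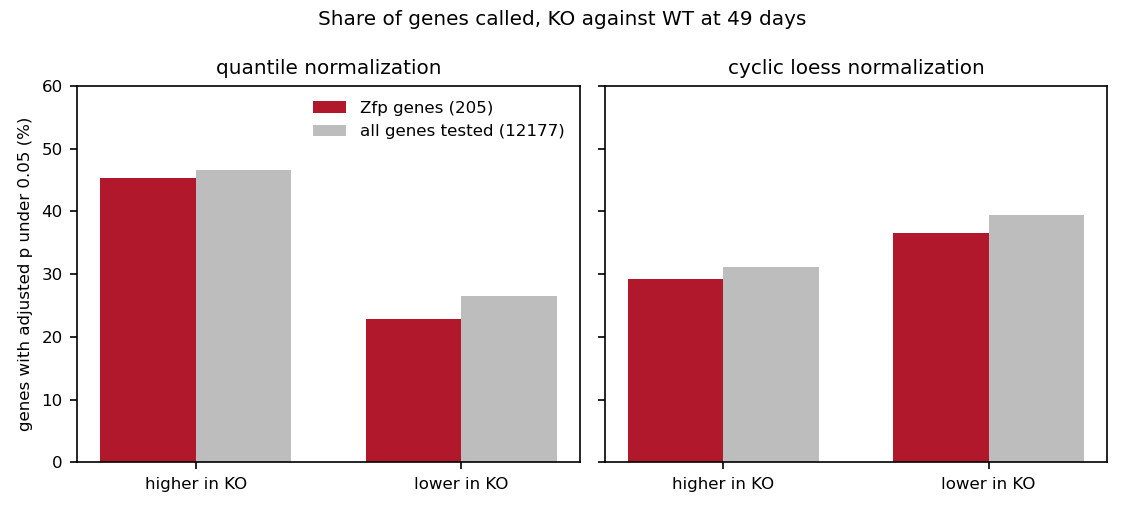
Share of genes, in percent, with adjusted p under 0.05 for KO against WT at 49 days, for 205 Zfp genes and for 12177 genes tested, under quantile and cyclic loess normalization. Within each panel the bars of the Zfp genes stand close to those of all genes, and the panels differ in which direction is more frequent.

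The members that fell furthest in KO testes at 49 days had median levels from 7.74 (Zfp526) to 11.11 (Zfp541) in WT testes of that age, where the median of the members was 7.85. Zfp474 had log2 levels of 5.74, 7.84 and 10.03 (lowest, median and highest array) in KO testes, against 10.71, 10.93 and 11.04 in WT testes. All KO arrays lay below all WT arrays, and the KO arrays spread over a much wider range. Its log2 change was -2.86 ± 0.44 (SE; limma adjusted p = 1.04e-05), and a further probe of the gene gave -2.96. Zfp558 had levels of 6.21, 7.43 and 8.86 in KO testes and 9.48, 10.38 and 10.57 in WT testes, again without overlap. Its change was -2.59 ± 0.32 (SE; limma adjusted p = 1.11e-06). Zfp821 followed at -2.08, with its other probe at -1.68.

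Regulators of transcription were among the largest falls. Zfp217, a partner of the LSD1 and CoREST corepressors, had levels of 6.47, 8.16 and 9.96 in KO testes at 49 days, against 10.27, 10.44 and 10.57 in WT testes. Its change was -2.05 ± 0.38 (SE; limma adjusted p = 6.73e-05), with no overlap between the groups. Zfp423, which works with SMAD and EBF factors in neural and fat precursors, had levels of 7.06, 9.0 and 10.61 in KO testes and 10.93, 11.03 and 11.12 in WT testes. It changed by -1.95 ± 0.36 (SE; limma adjusted p = 7.55e-05), its further probe gave -1.95 as well, and KO and WT arrays did not overlap. At 15 days Zfp217 was above background on 0 of 6 KO and 1 of 6 WT arrays and Zfp423 on none of either.

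Zfp72 was at 5.72, 7.02 and 8.7 in KO testes at 49 days, against 8.53, 9.17 and 9.53 in WT testes, and its highest KO array reached into the WT range. It fell by 1.94 on the log2 scale (limma adjusted p = 3.3e-05). Zfp169 was above background on 1 of 6 KO arrays and on 6 of 6 WT arrays and had levels of 5.04, 5.86 and 6.47 in KO and 7.53, 7.77 and 8.08 in WT testes. These groups did not overlap, and the KO arrays were less spread (SD 0.55) than for Zfp474, Zfp558, Zfp217, Zfp423 and Zfp72. The fitted change was -1.91 ± 0.20 (SE; limma adjusted p = 1.11e-07). At 15 days Zfp169 was above background on no array. It may thus be a member only through its WT arrays of 49 days, and its fall is not free of that choice. Zfp526 changed by -1.48 and Zfp106, an RNA-binding protein needed by motor neurons, by -1.46, each with all KO arrays below all WT arrays. Zfp526 had median levels of 5.63 in KO and 5.72 in WT testes at 15 days, and of 6.19 and 7.74 at 49 days. Like Zfp169, it may be a member only through its WT arrays of 49 days, so its fall is not free of that choice. The 10 largest falls were those of Zfp474, Zfp558, Zfp821, Zfp217, Zfp423, Zfp72, Zfp169, Zfp526, Zfp541 and Zfp106. Each of these genes was lower in KO on all 4 slides.

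The members that rose furthest had median levels from 5.27 (Zfp551) to 9.9 (Zfp362) in WT testes of 49 days. Zfp704 had the largest fitted rise, with levels of 8.57, 9.52 and 10.76 in KO testes and 7.17, 7.37 and 7.52 in WT testes at 49 days. The groups did not overlap for this probe, whose change was 2.11 ± 0.23 (SE; limma adjusted p = 3.1e-07). A second, dimmer probe of Zfp704 went the other way, at -0.95 (limma adjusted p = 0.0118), so the array gives no single direction for this gene. Zfp641, whose promoter is printed above, was above background on 4 of 6 KO arrays and on 0 of 6 WT arrays, with levels of 5.8, 7.41 and 8.75 in KO and 5.1, 5.46 and 5.84 in WT testes. Since WT was not above background, KO was at least 1.48-fold higher (limma adjusted p = 7.11e-05), and the lowest KO array lay within the WT range.

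Zfp579 had levels of 8.87, 9.79 and 11.25 in KO testes and 7.72, 8.12 and 8.61 in WT testes at 49 days, without overlap. Its change was 1.63 ± 0.28 (SE; limma adjusted p = 2.53e-05). Zfp275 rose by 1.68, with a lowest KO array of 7.79 that lay below the highest WT array of 7.93. Zfp148, which binds GC-rich promoters and is also known as ZBP-89, had levels of 8.85, 9.63 and 10.66 in KO and 7.73, 8.15 and 8.53 in WT testes. It rose by 1.56 ± 0.24 (SE; limma adjusted p = 8.28e-06), with 1.2 at its further probe, and all KO arrays were above all WT arrays. Zfp46, Zfp90 and Zfp362 rose by 1.6, 1.5 and 1.49, in each case without overlap. Zfp30 was at least 1.43-fold and Zfp551 at least 1.13-fold higher in KO, since neither was above background on any WT array, and a second probe of Zfp30 gave 0.13 with no call. All 10 of these rises kept their direction and call under cyclic loess, where their values ran from 1.04 for Zfp362 to 1.7 for Zfp704, and each was higher in KO on all 4 slides.

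**Figure D3:**
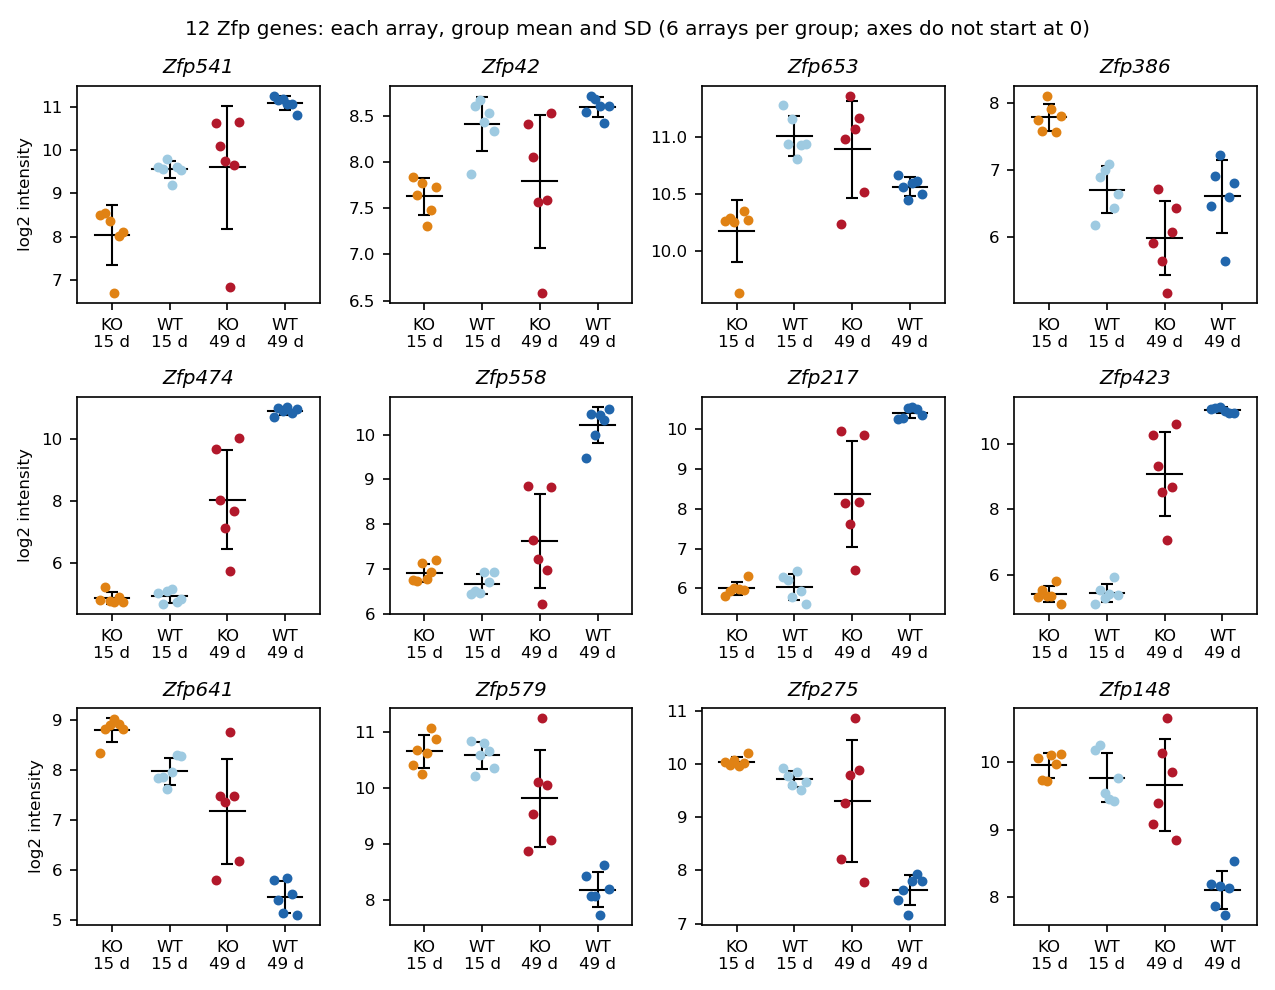
Log2 intensity of 12 Zfp genes on each array (points), with the group mean and SD (bars), for KO and WT at 15 days and KO and WT at 49 days, 6 arrays per group. Zfp474, Zfp558, Zfp217 and Zfp423 are lower on every KO array than on every WT array at 49 days, and the bottom row shows genes that are lowest in WT testes of 49 days.

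The KO arrays of 49 days differed among themselves. The median SD over arrays of the members was 0.47 in KO and 0.19 in WT testes at 49 days, against 0.2 in KO and 0.23 in WT testes at 15 days. The members called higher had a median shift from the WT mean of 0.31 on KO array F and 0.47 on A, of 0.87 on B, 1.11 on E and 1.14 on C, and of 1.38 on D. The members called lower had shifts of -0.36 on F, -0.42 on A, -0.91 on B, -1.04 on C, -1.08 on E and -1.57 on D. WT arrays lay between -0.12 and 0.09 for both groups of members. These members were chosen by this contrast, so the direction of the shifts is given by the choice, and what the values show is how far the KO arrays lie apart. Without array D, 86 of the 93 higher and 43 of the 47 lower members remained called.

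Levels of the marker lists also differed among these KO arrays, not all in the same order. All 9 round spermatid markers tested were lower and all 10 Sertoli cell markers were higher in KO than in WT testes at 49 days. Of the elongating spermatid markers 9 of 11 were lower and of the pachytene markers 6 of 11, while 5 of 10 spermatogonial markers were higher. Over all genes 46.6% were higher and 26.5% lower. The mean level of the round spermatid markers ran from 8.32 to 12.37 on KO arrays and from 12.77 to 13.03 on WT arrays, and its shift was -0.51 on array F, -0.74 on A, -2.04 on B, -2.64 on E, -3.1 on C and -4.56 on D. Other lists did not follow this order. The spermatogonial markers had a shift of 1.17 on array C and -0.14 on D, and the early meiotic markers of 0.23 on C, 0.2 on F and -2.76 on D. The Sertoli cell markers ran from 10.43 to 12.59 on KO arrays and from 9.5 to 9.91 on WT arrays, where Amh and Gata1 were above background on none. Of the somatic lists, 4 of 5 Leydig cell, 4 of 5 peritubular myoid, 7 of 8 macrophage and leukocyte and 4 of 5 endothelial markers were higher. The part of these cell types in the members' changes was not tested, and in whole testis fewer cells of a type and less RNA per cell cannot be told apart.

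**Figure D4:**
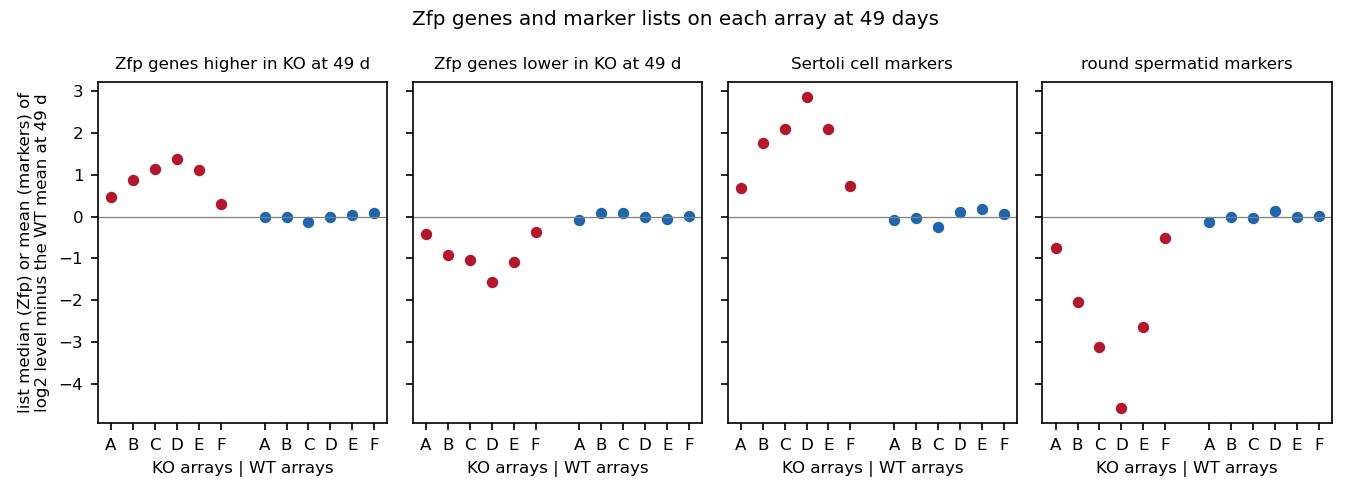
Shift of 93 Zfp genes higher in KO, 47 Zfp genes lower in KO, Sertoli cell markers and round spermatid markers on each array of 49 days, relative to the WT mean of that age (list median for the Zfp genes, list mean for the markers, log2 scale). KO arrays A and F lie nearest to WT and D furthest in all 4 panels.

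At 15 days few members passed. In KO against WT testes 3 members were higher and 6 lower, 1.46% and 2.93% of the members, against 1.11% and 3.6% of all genes tested. The arrays did not overlap for 12 members higher and 11 lower in KO, against 4.54% and 6.55% of all genes. The members' median change was 0.08 and that of all genes was 0. These counts were not stable: they ran from 2 to 10 higher and from 1 to 12 lower when 1 array was left out, and the larger values came without KO array D of 49 days, which lies outside the comparison and enters through the shared estimate of the spread. The members' median SD was 0.47 in KO testes of 49 days, against 0.2 in KO and 0.23 in WT testes of 15 days. When only the arrays compared were fitted, more members passed in each direction, with counts given in the last section.

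The rises at 15 days were Zfp386, Zfp873 and Zfp449. Zfp386 had levels of 7.57, 7.78 and 8.11 in KO testes and 6.18, 6.77 and 7.09 in WT testes of 15 days, without overlap. It rose by 1.08 ± 0.24 (SE; limma adjusted p = 0.0114) at this age. At 49 days its levels were 5.16, 5.99 and 6.71 in KO and 5.64, 6.7 and 7.23 in WT testes, with overlap, and the change was -0.62 (limma adjusted p = 0.0285). No other member was called higher at 15 and lower at 49 days, but its second probe gave -0.25 at 15 days, with no call, and a rise of 0.39 at 49 days, and on 1 of 4 slides the 49-day difference was positive (0.59). Zfp873 rose by 0.75 at 15 days. At 49 days neither KO nor WT was above background on any array, so no direction is given although the fit passed. Zfp449 rose by 0.55 at 15 days (limma adjusted p = 0.0156, and 0.0549 without KO array D of that age), and at 49 days its 0.30 was -0.02 under cyclic loess.

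Among the falls at 15 days, Zfp653 passed most firmly. It had levels of 9.63, 10.27 and 10.35 in KO testes, against 10.81, 10.94 and 11.28 in WT testes, without overlap, and changed by -0.84 ± 0.16 (SE; limma adjusted p = 0.00327). Its adjusted p stayed between 0.00104 and 0.0123 when any 1 array was left out. At 49 days its change of 0.33 did not pass (limma adjusted p = 0.0736). Zfp771 fell by 0.53 at 15 days and rose by 0.49 at 49 days, where cyclic loess gave 0.05. A second probe of Zfp771 gave -0.53 at 15 and 0.22 at 49 days, with no call at either age. Zfp598, a ubiquitin ligase that recognises collided ribosomes, fell by 0.49, and Zfp746, also known as PARIS, a repressor of PGC-1alpha, fell by 0.44. The calls of Zfp771, Zfp598 and Zfp746 were lost in 9, 5 and 6 of 24 omissions of 1 array.

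Zfp541 and Zfp42 fell at both ages. ZFP541 works with KCTD19 and histone deacetylases as male germ cells leave meiotic prophase. Zfp541 had levels of 6.69, 8.24 and 8.55 in KO testes of 15 days and 9.2, 9.59 and 9.79 in WT testes of that age. At 49 days it had levels of 6.84, 9.93 and 10.66 in KO and 10.81, 11.11 and 11.26 in WT testes. All KO arrays lay below all WT arrays at each age, and KO array D was the lowest at both. Both D arrays lay on slide 4, and their deviations from the group means correlated at 0.39 across the tested probes, which are not independent replicates, the highest value for a shared letter. The changes were -1.52 ± 0.43 (SE; limma adjusted p = 0.046) at 15 days and -1.48 ± 0.43 (SE; limma adjusted p = 0.00417) at 49 days. The call at 15 days was lost in 20 of 24 omissions of 1 array. Over all 24 omissions the limma adjusted p ran from 0.000153 to 0.141, and the change stayed between -1.62 and -1.25. Some losses came without an array of 49 days, which lies outside the comparison and enters only through the shared estimate of the spread. In these cases the change stayed at -1.52. Zfp42, known as Rex1, is a marker of pluripotent stem cells that is also expressed in meiotic germ cells. It changed by -0.78 at 15 days (limma adjusted p = 0.0493) and by -0.81 at 49 days (limma adjusted p = 0.00307). Its 15-day call was lost in 20 of 24 omissions, some of them of arrays of 49 days. The limma adjusted p ran from 0.00231 to 0.132 over the 24 omissions. Beside these falls, 7 of 11 pachytene markers were lower at 15 days, with a mean level from 6.7 to 8.54 on KO arrays and from 8.89 to 10.7 on WT arrays, and Ccna1 was above background on none of either. Of the early meiotic markers 2 of 9 were lower, with levels from 8.88 to 9.82 on KO and from 10.2 to 10.46 on WT arrays. Of the round spermatid markers 2 of 9 were lower, with levels from 5.54 to 6.12 on KO and from 6.21 to 6.7 on WT arrays, and 5 of the 9 were above background on no array of each group. Of all genes 3.6% were lower at 15 days. The part of these markers in the falls of Zfp541 and Zfp42 was not tested.

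The KO effects of the 2 ages differed for many members. In the test of the difference, 62 members had a more positive and 33 a more negative KO effect at 49 than at 15 days, 30.2% and 16.1% of the members, against 36% and 16.9% of all genes tested. Under cyclic loess 35 of the 62 and all 33 kept their call, and negative differences were the more frequent. The balance of directions thus depended on the normalization. The shares of all genes for the difference under cyclic loess are not given here. The largest negative differences were those of Zfp558 (-2.84), Zfp474 (-2.8), Zfp72 (-2.62) and Zfp169 (-2.37, limma adjusted p = 5.15e-06). All 4 genes had 15-day changes between -0.06 and 0.68 that did not pass. At that age Zfp474 and Zfp169 were above background on no array and Zfp72 on 2 of 6 KO and 0 of 6 WT arrays, so their 15-day effects were not measured and these differences rest on values at background. The largest positive differences were those of Zfp579 (1.56), Zfp652 (1.5), Zfp1 (1.49) and Zfp334 (1.48). Zfp652 had levels of 6.28, 6.74 and 7.46 in KO and 5.42, 5.71 and 6.2 in WT testes at 49 days, where no WT array was above background. At 15 days the order was the reverse, with 7.05, 7.28 and 7.42 in KO and 7.51, 7.71 and 8.03 in WT testes, and that change of -0.48 did not pass (limma adjusted p = 0.168). Second probes of Zfp652 and Zfp334 gave 0.07 and 0 at 49 days, with no call.

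Between the ages, more members were lower at 49 than at 15 days. In WT testes 49 members were higher and 118 lower at 49 days, 23.9% and 57.6% of the members, against 27.9% and 55% of all genes tested, and under cyclic loess 83 were higher and 63 lower, against 42.5% and 34.6% of all genes. The members' changes had an SD of 1.4, against 2.19 for all genes, again without a comparison at equal level. In KO testes 34 members were higher and 80 lower at 49 days, 16.6% and 39% of the members, against 24% and 34.2% of all genes. Under cyclic loess 59 were higher and 38 lower, so the more frequent direction depended on the normalization. The shares of all genes for age in KO testes under cyclic loess are not given here. The comparisons between ages and those between genotypes share arrays, so only their separate values are given.

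The members that rose most with age in WT testes differed in their level at 15 days. Zfp423 was above background on 0 of 6 WT arrays at 15 days and had levels of 10.93, 11.03 and 11.12 at 49 days, against 5.1, 5.39 and 5.94 at 15 days. It was at least 25.2-fold higher at 49 days (limma adjusted p = 5.11e-12). Zfp474 was at least 23.2-fold, Zfp72 at least 6.78-fold and Zfp169 at least 2.64-fold higher at 49 days in WT testes, each above background on no WT array of 15 days. The choice of Zfp169 as a member may itself rest on the WT arrays of 49 days. Zfp217 rose by 4.38, Zfp558 by 3.55, Zfp654 by 3.24 and Zfp819 by 2.93 on the log2 scale, and Zfp558 and Zfp654 were above background on all 6 WT arrays at 15 days. In KO testes Zfp423 was at least 6.49-fold and Zfp474 at least 3.19-fold higher at 49 than at 15 days, and Zfp654 rose by 2.73.

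The opposite pattern was led by Zfp30, which had levels of 5.26, 5.57 and 5.77 in WT testes at 49 days and 8.3, 8.49 and 8.78 at 15 days. It was above background on no WT array at 49 days and was at least 3.76-fold lower there (limma adjusted p = 1.55e-09). Zfp641 was at least 2.59-fold and Zfp398 at least 3.15-fold lower at 49 days in WT testes. Zfp579, Zfp64, Zfp704, Zfp623 and Zfp275 fell by 2.4, 2.17, 2.16, 2.13 and 2.1 on the log2 scale in WT testes. The further probes of these genes did not all agree: that of Zfp704 rose by 0.83, that of Zfp30 gave -0.32 with no call, and 1 of 3 further probes of Zfp64 gave 0.08 with no call. In KO testes the largest falls with age were those of Zfp386 (-1.8), Zfp30 (-1.77) and Zfp641 (-1.63).

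Of 10 listed Zfp genes of germ cells, 7 were members, and at 49 days 1 was higher and 3 were lower in KO testes, while under cyclic loess 0 were higher and 6 lower. Over all genes 46.6% were higher and 26.5% lower, and 31.2% and 39.4% under cyclic loess. Zfp541 and Zfp42 are described above. Zfp35, a gene expressed in pachytene spermatocytes, had levels of 8.7, 10.1 and 10.91 in KO and 11.08, 11.2 and 11.27 in WT testes at 49 days, without overlap. It fell by 1.08 on the log2 scale (limma adjusted p = 0.000516). Zfp60 rose by 0.61, although its second probe fell by 0.36. Zfp318, Zfp37 and Zfp628 did not pass, at 0.13, -0.28 and -0.04, although a second probe of Zfp37 fell by 0.98 (limma adjusted p = 0.000353). Zfp628, a factor of round spermatids needed for their maturation, had levels of 6.94, 7.56 and 7.8 in KO and 7.43, 7.52 and 7.61 in WT testes, which overlapped.

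Of the 2 members on the list of imprint and retroelement regulators, 1 passed at 49 days. Zfp809, which silences murine leukaemia virus sequences in embryonic cells, had levels of 7.66, 8.06 and 8.88 in KO and 8.77, 8.99 and 9.19 in WT testes at 49 days. It changed by -0.76 ± 0.18 (SE; limma adjusted p = 0.000711), and its highest KO array lay in the WT range. Zfp445, which maintains genomic imprints, was at 0.37 and did not pass (limma adjusted p = 0.16). At 15 days Zfp809 was at 0.36 and Zfp445 at 0.12, and neither passed (limma adjusted p = 0.287 and 0.883).

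Of the 10 members listed as acting on RNA, ribosomes or proteins, 6 were higher and 2 lower in KO testes at 49 days, while under cyclic loess 3 were higher and 4 lower. Of all genes 46.6% and 26.5% were, or 31.2% and 39.4% under cyclic loess. Zfp36, or tristetraprolin, which binds AU-rich messenger RNAs and speeds their decay, had levels of 8.86, 9.8 and 10.81 in KO and 7.82, 8.37 and 8.45 in WT testes, without overlap. It rose by 1.45 ± 0.23 (SE; limma adjusted p = 1.23e-05), and by 1.04 under cyclic loess. Zfp330 rose by 0.94, but its second probe fell by 1.02 (limma adjusted p = 0.000121), so this gene has no single direction. Zfp326, a component of the DBIRD complex of splicing and elongation, rose by 0.74, while its 2 further probes gave -0.11 and -0.01 with no call. Zfp277, Zfp207 and Zfp593 were higher by 0.58, 0.48 and 0.45 on the log2 scale, and none of the 3 passed under cyclic loess. A second probe of Zfp207 gave 0.02 with no call, and Zfp593 lost its call in 5 of 24 omissions of 1 array. Zfp106 and Zfp91 were lower by 1.46 and 0.87, while Zfp598 and Zfp346 did not pass, at -0.1 and -0.09.

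Of the 19 members listed as regulators of transcription, 11 were higher and 3 lower in KO testes at 49 days, while under cyclic loess 6 were higher and 5 lower. The shares of all genes were 46.6% and 26.5%, and 31.2% and 39.4% under cyclic loess. Besides Zfp148, the largest rises of this list were those of Zfp292 (1.38) and Zfp266 (1.27). Zfp292 had levels of 8.97, 9.99 and 10.75 in KO and 8.23, 8.55 and 8.85 in WT testes, without overlap, and its 2 further probes gave 1.36 and 1.52. The falls were those of Zfp217, Zfp423 and Zfp516, the last at -0.3 (limma adjusted p = 0.0222).

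Of the 4 members with the highest means, 3 were higher in KO testes at 49 days. Zfp523 had levels of 11.79, 12.41 and 12.8 in KO and 11.33, 11.47 and 11.54 in WT testes and rose by 0.91 (limma adjusted p = 7.81e-06), while its second probe gave -0.04. Zfp639 and Zfp212 were higher by 0.4 and 0.39, and under cyclic loess they were at -0.26 and -0.19. The 4 further probes of Zfp212 gave changes between -0.06 and 0.08 with no call, and Zfp219 did not pass. Of the 4 members just inside the limit, Zfp617 was at -0.46 (limma adjusted p = 0.0113) with no array of either group above background, and the others did not pass at 49 days.

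Of 17 listed corepressors and effectors of KRAB zinc finger proteins 13 were tested. At 49 days 6 were higher and 0 lower in KO testes in limma, where 46.6% and 26.5% of all genes were. Under cyclic loess 3 were higher and 5 lower, against 31.2% and 39.4% of all genes. Smarcad1, a chromatin remodeller, was higher by 1.32 and Hdac2, a histone deacetylase, by 1.14, and these stayed positive under cyclic loess at 0.91 and 0.56. Trim28, the common partner of KRAB boxes, was lower at 15 days by 0.54 (limma adjusted p = 0.032) and at 0.23 at 49 days, without a call, where cyclic loess gave -0.52. Kctd19, the partner of ZFP541, was lower at 15 days with a change of -2.95 (limma adjusted p = 0.00249), and its change at 49 days, -0.75, did not pass (limma adjusted p = 0.22). Dnttip1, another part of that complex, was at -0.32 at 15 days without a call and at 0.46 at 49 days (limma adjusted p = 0.002), where cyclic loess gave -0.24.

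Zfp genes lie in clusters in the genome. Of the 205 members 56, or 27.3%, lie on chromosome 7, where 7.75% of the genes tested lie, and 19 lie on chromosome 17. On chromosome 7, 19 members were higher and 16 lower in KO testes at 49 days, with a median change of 0.01. Under cyclic loess 13 of its members were higher and 24 lower, against 31.2% and 39.4% of all genes tested. Of the 944 genes tested on that chromosome 45.8% were higher and 26.2% lower, with a median of 0.30. On chromosome 17, 11 of 19 were higher and 1 lower, and under cyclic loess 9 were higher and 6 lower, against 45.2% higher and 29.3% lower of the 611 genes tested there, or 31.9% and 42.7% under cyclic loess. On chromosome 13, which holds Nsun2, 6 of 10 were lower and 2 higher, with a median of -0.62, and under cyclic loess 7 were lower and 1 higher. Of the 412 genes tested there 26.9% were lower and 49.5% higher, with a median of 0.34, or 38.3% and 34.2% under cyclic loess. The lower members include Zfp169 and Zfp72.

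**Figure D5:**
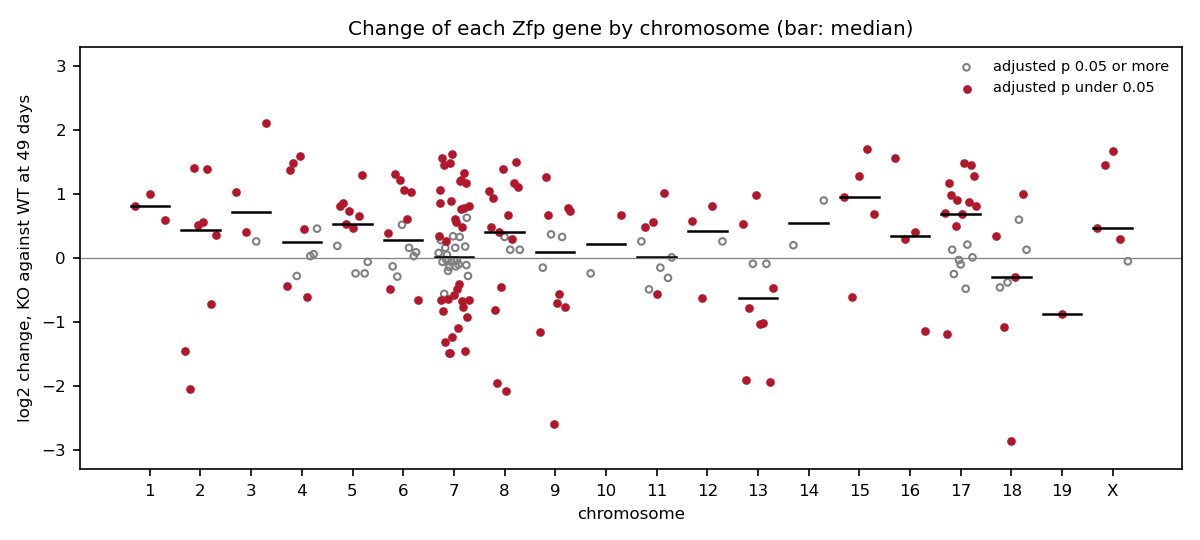
Log2 change, KO against WT at 49 days, of each of 205 Zfp genes by chromosome, with the median of each chromosome as a bar and filled points for adjusted p under 0.05. Chromosome 7 holds 56 genes spread on both sides of 0, and chromosome 13 holds 6 lower genes of 10.

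Members were joined into runs when their places in the order of protein-coding genes differed by at most 5. Of the members, 103 stood alone and 47 lay in 8 runs of 5 or more. A run of 8 on chromosome 6, from Zfp786 to Zfp467, held 4 higher and 1 lower member at 49 days, with changes from -0.65 to 1.31. A run of 7 on chromosome 7, which holds Zfp30, had 4 higher and 0 lower members and changes from -0.56 to 1.57. Under cyclic loess 4 of its members were higher and 2 lower. A run of 6 on the same chromosome, which holds Zfp771, had 3 higher and 2 lower members. Of all genes tested 46.6% were higher and 26.5% lower at 49 days, or 31.2% and 39.4% under cyclic loess. With so few members per run, these counts say nothing particular about runs.

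Of 40 Zbtb, Zscan and Zkscan genes 18 were higher and 16 lower in KO testes at 49 days, and of 16 Zfp genes whose symbol ends in a letter 11 were higher and 2 lower, against 46.6% and 26.5% of all genes. Under cyclic loess the counts were 13 and 20, and 8 and 4, against 31.2% and 39.4%. Within the members, 75 genes had further tested probes. Of 65 further probes of members called at 49 days, 33 gave the same call, 23 gave no call and 9 gave the opposite call, so a direction read from 1 probe did not always hold for the gene.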

How the data were processed

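Testis RNA was labelled with biotin and hybridised to 24 single-colour Illumina arrays, 6 per group. The authors deposited a table of non-normalized probe intensities and a table of log2 values. The deposited log2 values differed by at most 3.62e-05 from log2 of the quantile-normalized intensities, and they served to choose members and as the analysis without background correction. The 24 detection p columns of the intensity table are empty and were not used. Scanner and software: not given in the sources used here.

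Of 45278 probes, 34885 had 1 gene symbol, 18 had several and 10375 were unnamed. The symbols of 34807 probes were updated or kept through the gene identifier with RefSeq (GRCm38.p6). Intensities were corrected by normexp with 946 dim control rows (median under 400; 10 brighter control rows were left out), given an offset of 16, quantile normalized and put on the log2 scale (neqc, limma 3.58.1, R 4.3.3). The 22639 probes in the upper 0.5 of the authors' mean log2 values were tested with limma in a group-means model over all 24 arrays (20 residual degrees of freedom) and Benjamini-Hochberg adjustment over all probes, with a threshold of 0.05. The brightest probe stood for each of 12177 genes. The test was checked on simulated data. Where a group was above background on no array, a lower bound of the fold was computed against the lowest signal above background.

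Members and lists were chosen with earlier results of these data known. Named genes were the largest passing changes of each comparison (up to 8 per direction at 15 days, 10 at 49 days, 4 for the difference, 8 for age in WT and 3 for age in KO), the 4 brightest and 4 dimmest members, the members of the role lists and up to 3 per direction of the lists of transcription regulators and corepressors. Arrays lay on 4 slides, each with all 4 groups. The labels used here do not say whether replicate letters pair the arrays, and the main fit treated them as unpaired. Correlations of same-letter deviations between KO and WT ran from -0.05 to 0.15 at 15 days and from -0.21 to 0.19 at 49 days. Between ages they ran from -0.1 to 0.39 in KO and from -0.05 to 0.13 in WT. These values cannot settle whether the letters mark pairs. Alternatives were other background, normalization, filter, slide, block, weight and sample settings, and leaving out each array. Protein sequences and the split by KRAB box were not analysed here.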

Additional observations from a re-analysis of the deposited data

Results flagged for a closer look

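Among 62 named members, 39 had a KO effect at 49 days that differed from the KO effect at 15 days in limma (adjusted p under 0.05). Many of them were named for the size of a KO effect or of this difference, so that count follows in part from the choice. Over all 205 members, 62 had a more positive and 33 a more negative KO effect at 49 days, against 36% and 16.9% of all genes tested. Differences are the effect at 49 minus the effect at 15 days on the log2 scale. Zfp386 was at -1.7, with a rise at 15 and a fall at 49 days, and Zfp771 at 1.02, with a fall at 15 and a rise at 49 days. The second probes of both genes did not repeat these calls at either age. Further members that fell at 15 days, Zfp653 and Zfp746, were at 1.16 and 0.6. Zfp704, whose brightest probe rose at 49 days while its second probe fell, was at 1.43. The other members that rose at 49 days were at 1.35 for Zfp275, 1.56 for Zfp579, 1.38 for Zfp46, 1.19 for Zfp30, 1.38 for Zfp148, 1.33 for Zfp90, 1.22 for Zfp362 and 1.24 for Zfp551. The members that fell at 49 days were at -2.8 for Zfp474, -2.84 for Zfp558, -1.96 for Zfp821, -2.01 for Zfp217, -1.92 for Zfp423, -2.62 for Zfp72, -2.37 for Zfp169, -1.43 for Zfp526 and -1.46 for Zfp106. Further positive differences were 1.5 for Zfp652, 1.49 for Zfp1, 1.48 for Zfp334, 1.35 for Zfp398, 1.27 for Zfp64, 1.22 for Zfp623, 1.17 for Zfp523, 0.6 for Zfp639 and 0.42 for Zfp212. Members on the RNA and ribosome list were at 1.46 for Zfp36, 0.82 for Zfp326, 1 for Zfp330 and 0.51 for Zfp207, and Zfp292, a regulator of transcription, was at 1.05. Zfp30, Zfp551, Zfp652 and Zfp398 were above background on no WT array at 49 days, and Zfp474, Zfp217, Zfp423, Zfp72, Zfp169 and Zfp526 on at most 2 of 6 arrays of each group at 15 days, so their differences rest in part on values at background. Negative differences were -1.49 for Zfp819, -0.84 for Zfp35 and -1.12 for Zfp809.

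One array stood apart from the other 5 of its group in 15 of 248 groups of a named member, where chance alone gives about 5%. Zfp541 was at 6.69 on KO array D of 15 days, with the others between 8.01 and 8.55, and at 6.84 on KO array D of 49 days, with the others between 9.65 and 10.66. KO array D of 15 days was also low for Zfp653 (9.63) and high for Zfp362 (12.38). The other KO arrays of 15 days were A for Zfp641 (8.33), B for Zfp474 (5.23), E for Zfp37 (7.7) and F for Zfp60 (9.24). KO array A of 49 days was high for Zfp37 (9.04). Among WT arrays of 15 days B was low for Zfp362 (11.55) and high for Zfp654 (10.38), F was low for Zfp593 (7.34) and A low for Zfp277 (10.04). Among WT arrays of 49 days C was low for Zfp36 (7.82) and F high for Zfp346 (10.46).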

How the results depend on the processing

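The KO against WT counts at 15 days were the least stable. In place of 3 higher members there were 8 without background correction, 6 with an offset of 50, 5 with cyclic loess, 5 with no filter on dim probes, 5 with the filter on probes above background, 25 with array weights and 23 with only the arrays compared. In place of 6 lower members there were 1 with scale normalization, 17 with array weights and 14 with only the arrays compared. Leaving out 1 array gave 2 to 10 higher and 1 to 12 lower members. The higher count was 2 without KO D of 15 days, 5 without KO A or WT D (of 49 and 15 days), 7 without KO F of 49 days and 10 without KO D of 49 days. The lower count was 1 without KO B, D or E, 2 without WT A or E and 3 without KO A, C or F or WT B, C or F, all of 15 days, and 12 without KO D of 49 days. Cyclic loess gave 60 higher and 75 lower members at 49 days, 35 and 55 for the difference of the KO effects, 83 and 63 for age in WT and 59 and 38 for age in KO. Of all genes 31.2% and 39.4% were higher and lower at 49 days under this setting, and 42.5% and 34.6% for age in WT. Array weights gave 96 and 55 for the difference, and only the arrays compared gave 22 higher for age in KO. Leaving out 1 array gave 84 to 96 higher and 43 to 52 lower members at 49 days. For the other settings of this section the shares of all genes are not given here, so these counts say nothing particular about Zfp genes. The cause of these shifts was not tested.

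Some genes that did not pass at 49 days changed sign: Zfp318 was at -0.41 and Zfp445 at -0.03 under cyclic loess, and Zfp598 at 0.02 and Zfp346 at 0.07 with array weights. Zfp628 was at 0.08 with scale normalization, 0 with the slide as a fixed block, 0.19 with array weights and between -0.1 and 0.07 when 1 array was left out. Of 79 results on named genes, 67 kept direction and side of the threshold under cyclic loess and 72 under scale normalization. With the replicate letter as a block all 79 did, and the counts were 3 higher and 8 lower at 15 days and 92 higher and 49 lower at 49 days. Each array correlated best with its own letter in 2 of 6 cases at 15 days and 1 of 6 at 49 days. With Zfp genes whose symbol ends in a letter counted too, 221 members gave 104 higher and 49 lower at 49 days, against 46.6% and 26.5% of all genes. Values near background, 6 arrays per group, 1 probe per gene and whole-testis RNA limit all results.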
